A study of Mus musculus with 6 samples.

Results

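Peroxisomal fatty acid oxidation was followed through 7 genes in heart ventricle of mice on a western diet (WD) that were given Tributyrin or vehicle. The genes were a fixed list of importers, enzymes, an exporter and a proliferation factor, and all 7 of the list were found among the 54232 gene identifiers counted and passed the filter on low counts. Tributyrin is a triglyceride of the short chain fatty acid butyrate. Wild-type C57BL/6J mice had been on WD for 15 weeks and were then needle-fed for 3 weeks, 2 days on and 2 days off, with vehicle or with Tributyrin (5 g/kg of body weight). The labels name the vehicle PBS, and each group held 3 mice with 1 library each. All 6 mice had the diet, so that values on normal chow were not part of the comparison, and the age and the source litter of each mouse are not given in the labels.

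Peroxisomes shorten fatty acids that mitochondria handle poorly, such as very long chain, branched and dicarboxylic acids. The acyl-CoA is brought in by half-size ABC transporters, oxidised in a step that gives hydrogen peroxide, hydrated and dehydrogenated by a bifunctional enzyme, and cleaved by a thiolase. The shortened chains leave as carnitine esters and are finished in mitochondria. In rodent liver many of these genes are known targets of the fatty acid receptor PPARα, and in heart the pathway is minor beside mitochondrial beta-oxidation.

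The libraries held between 20369746 and 32734485 counts on genes. The 8 ventricular cardiomyocyte markers were counted in every library, and their summed level did not separate the groups. However, 3 of the 8, all higher with Tributyrin, had an unadjusted p under 0.05 by edgeR, against 4.25% of all genes. So had 2 of 5 fibroblast markers, lower with Tributyrin (median log2 fold change of the list -0.30), and 2 of 4 smooth muscle markers, higher (median 0.35), with 0 past an FDR of 10% in any marker list by edgeR. Transcripts of 5 atrial genes summed to 1414 to 4786 normalized counts with vehicle, highest in replicates 1 and 2, and to 815 to 1687 with Tributyrin. By edgeR 4 of the 5 had an unadjusted p under 0.05, lower with Tributyrin. *Nppa* was highest in vehicle replicate 3, at 1046 against 554 and 485 in vehicle replicates 1 and 2. *Sln*, *Myl7*, *Myl4* and *Mybphl* were each lowest of all 6 libraries in vehicle replicate 3. Transcripts of 4 Y-linked genes were counted in every library while *Xist* reached at most 6.24 normalized counts. Since the tissue was sequenced in bulk, fewer cells of a type and less RNA per cell cannot be told apart. Normalized counts are counts divided by the DESeq2 size factor of the library.

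None of the 7 genes differed between WD + Tributyrin and WD + vehicle mice beyond the spread between mice. By the edgeR quasi-likelihood test, with p adjusted over 14133 genes after Benjamini and Hochberg, 0 of 7 passed a false discovery rate (FDR) of 10%, where the share of all genes was 0%, and 0 of 7 passed 5%, where it was also 0%. The adjusted p was 0.999 for every one of them. At an unadjusted p under 0.05 there were 0 of the 7 genes by edgeR, DESeq2 and limma-voom alike, against 4.25% of all genes in the edgeR fit (1.97% higher with Tributyrin). The log2 fold changes, Tributyrin over vehicle, ran from -0.04 to 0.19 with a median of 0.03, where the median over all genes was -0.0013. In 5 of 7 genes the estimate was above 0, against 49.6% of all genes, but this fell to 3 of 7 where only library size was used for scaling. With that scaling the median over all genes was also lower, at -0.07, and that of the 7 genes was -0.04. In 0 of 7 genes did the 3 mice of one group lie apart from the 3 mice of the other, a separation seen for 8.91% of all genes (4.26% higher and 4.65% lower with Tributyrin).

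**Figure D1:**
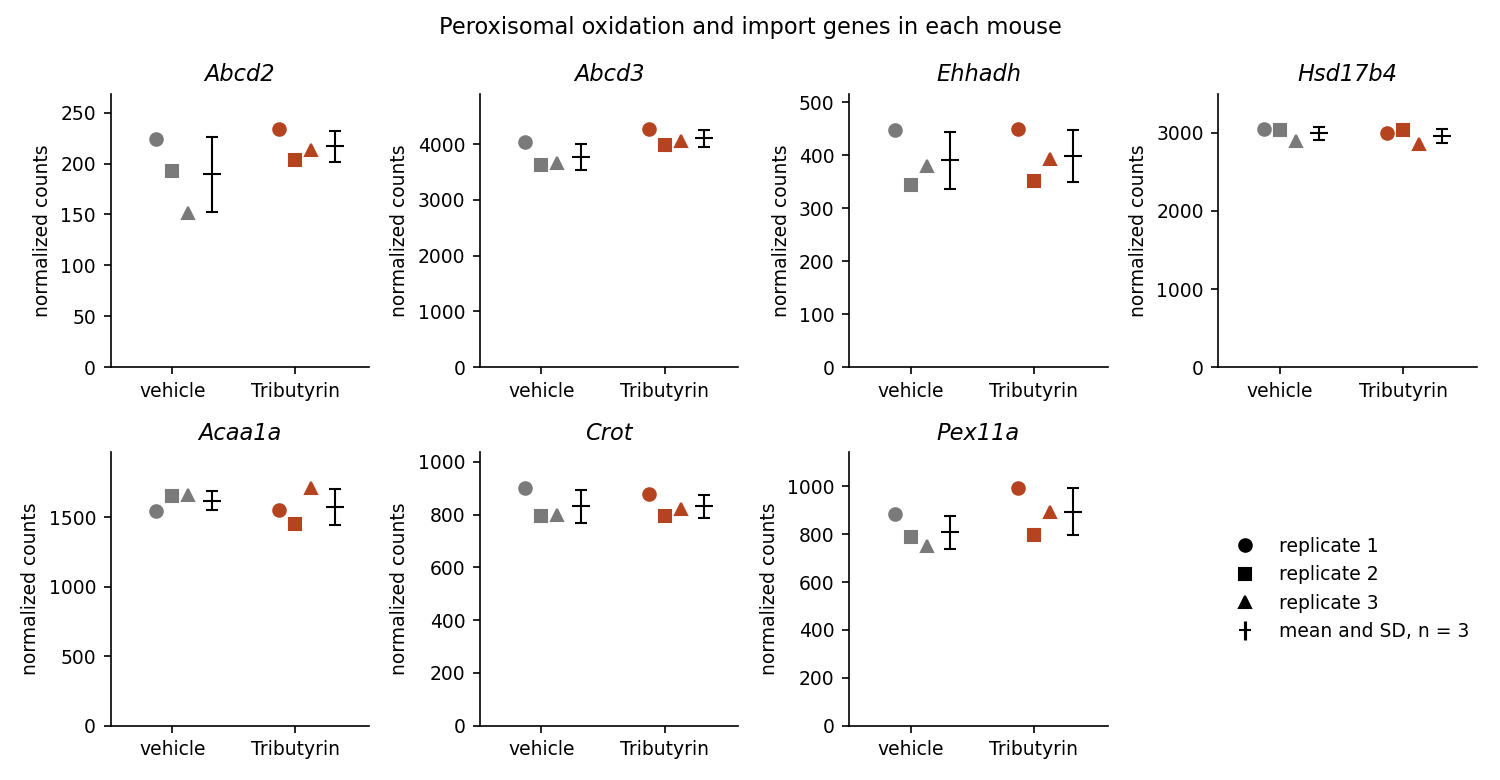
Normalized counts (y axis, from 0) of the 7 genes in each mouse, vehicle in grey and Tributyrin in red, with the marker shape giving the replicate number and bars the mean and SD of 3 mice. The groups overlap in every panel, and in *Ehhadh*, *Abcd2*, *Abcd3*, *Crot* and *Pex11a* replicate 1 is the highest of its group on both sides.

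The importers had the estimates farthest above 0 together with *Pex11a*. *Abcd3* (chr3:121758774-121815302, minus strand, GRCm38 as for the other positions here) encodes a major protein of the peroxisomal membrane, known for carrying dicarboxylic and branched chain acyl-CoA. It was counted at 4047, 3620 and 3654 normalized counts with vehicle and at 4269, 3985 and 4060 with Tributyrin. The means were 3774 ± 237 (SD, n = 3) and 4104 ± 147 (SD, n = 3), 8.76% higher with Tributyrin, but vehicle replicate 1 lay above Tributyrin replicate 2. The log2 fold change was 0.12 (standard error 0.072, 95% interval -0.04 to 0.28, adjusted p = 0.999 by edgeR). It had the smallest unadjusted p of the 7, 0.122, at rank 1547 of all genes.

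*Abcd2*, which encodes a transporter of very long chain and polyunsaturated acyl-CoA, lies at chr15:91145871-91191799 on the minus strand. It had 225, 192 and 152 normalized counts with vehicle and 234, 204 and 213 with Tributyrin. The lowest value was that of vehicle replicate 3, vehicle replicate 2 also lay below the Tributyrin mice, and vehicle replicate 1 lay among them. The means were 189 ± 36.5 (SD, n = 3) and 217 ± 15.3 (SD, n = 3), and the log2 fold change of 0.19 had the widest interval of the 7, from -0.14 to 0.52 (standard error 0.15, adjusted p = 0.999 by edgeR). With 122 to 250 reads counted per library, counting error alone gave a relative SD of up to 9.05%. The estimate rested on vehicle replicate 3, since it was 0.06 without that mouse, and it was 0.33 without vehicle replicate 1. It was 0.51 with vehicle replicates 1 and 2 left out, those with the most atrial transcripts, at an unadjusted p of 0.0327 and an adjusted p of 1.00 by edgeR, with vehicle replicate 3 as the lone vehicle mouse. The part of atrial tissue in this was not tested.

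*Abcd2* is known for its level in fat tissue, so adipocyte markers were read beside it. None of 6 adipocyte markers passed the filter on low counts, and their sum ranged from 19.9 to 62.8 normalized counts with vehicle and from 17.2 to 89.5 with Tributyrin. *Adipoq* had 0 counts in Tributyrin replicate 3, *Lep* had 0 in Tributyrin replicates 1 and 2, *Cfd* and *Retn* had 0 in Tributyrin replicate 1, and of the brown fat markers *Ucp1* had 0 in all 6 libraries while *Cidea* had 503 to 660 normalized counts. In Tributyrin replicate 1, where *Abcd2* was highest, the 6 markers summed to 17.8, and in vehicle replicate 3, where it was lowest, to 19.9. The part of fat tissue in the level of *Abcd2* was not tested. The log2 ratio of *Abcd2* to *Abcd3* averaged -4.33 ± 0.23 (SD, n = 3) in vehicle mice and -4.24 ± 0.05 (SD, n = 3) in Tributyrin mice. The difference of 0.09 did not pass an exact permutation test (two-sided, p = 0.9, where 3 mice against 3 allow no p under 0.1).

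**Figure D2:**
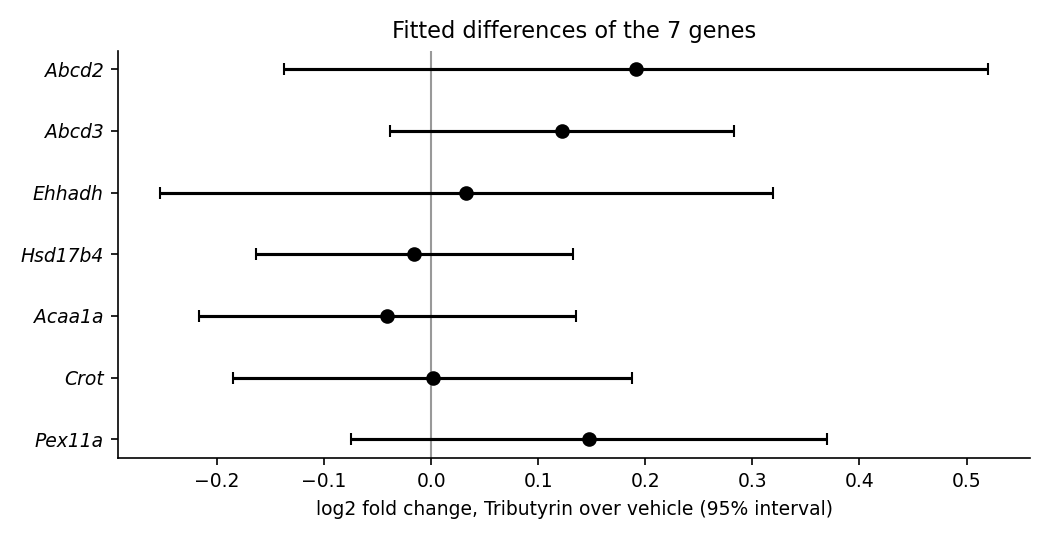
Log2 fold change, Tributyrin over vehicle, of the 7 genes from the edgeR fit across all genes (x axis), with 95% intervals as bars. All 7 intervals cross 0, the narrowest for *Hsd17b4* (-0.16 to 0.13) and the widest for *Abcd2* (-0.14 to 0.52).

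The enzymes of the oxidation steps among the 7 had log2 fold changes between -0.04 and 0.03. *Hsd17b4* encodes the D-bifunctional enzyme, which hydrates and dehydrogenates very long chain and branched substrates, and lies on chromosome 18. Its normalized counts were 3048, 3042 and 2897 in vehicle mice and 2993, 3034 and 2857 in Tributyrin mice. This was the steadiest gene of the 7, with the highest mouse only 1.07 times the lowest. The log2 fold change was -0.02 (standard error 0.067), and its 95% interval from -0.16 to 0.13 corresponds to a mean between 10.7% lower and 9.6% higher with Tributyrin.

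*Ehhadh* encodes the L-bifunctional enzyme, which does the same steps and is known for the oxidation of dicarboxylic acids, and lies at chr16:21761287-21787807 (minus strand). It was counted at 448, 343 and 379 normalized counts in vehicle mice and at 449, 352 and 393 in Tributyrin mice. The values of the groups interleaved, and the highest mouse was 1.31 times the lowest. The means of 389.9 ± 53.5 (SD, n = 3) and 398 ± 48.7 (SD, n = 3) differed by 2.09%, and the log2 fold change was 0.03 (standard error 0.13, 95% interval -0.25 to 0.32). The balance of the bifunctional enzymes, the log2 ratio of *Ehhadh* to *Hsd17b4*, averaged -2.95 ± 0.19 (SD, n = 3) in vehicle mice and -2.90 ± 0.19 (SD, n = 3) in Tributyrin mice (exact permutation test, two-sided, p = 0.7). It favoured *Hsd17b4* in all 6 mice.

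*Acaa1a* encodes the thiolase that cleaves the shortened chain, and lies at chr9:119339676-119350299 (plus strand). It has a close paralog on the same chromosome, *Acaa1b*, and their coding sequences of 1272 bases each are identical at 1228 bases (96.5%). The start of the coding sequence, which holds the N-terminal peroxisomal targeting signal, shows how little separates their reads. The lines give the first 90 coding bases, at chr9:119341515-119341604 on the plus strand for *Acaa1a* and chr9:119156905-119156994 on the minus strand for *Acaa1b* (GRCm38, GENCODE M21 transcripts), with the 3 differing bases in capitals.
Acaa1a: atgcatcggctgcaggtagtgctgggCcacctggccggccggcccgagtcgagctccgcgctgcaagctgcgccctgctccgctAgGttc
Acaa1b: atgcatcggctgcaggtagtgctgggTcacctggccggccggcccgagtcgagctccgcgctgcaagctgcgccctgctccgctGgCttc
Of the different stretches of 50 bases, the read length, in *Acaa1a* transcripts, 12.9% also occurred in transcripts of another gene, most often *Acaa1b*, so its level was uncertain by the reads that the counting dropped or split. For the other 6 genes this share was at most 2.02%. *Acaa1a* also overlaps *Myd88* on the opposite strand over 290 exonic bases, and the strand setting of the counting is not given in the sources used here.

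In ventricle the counted reads of the pair were almost all on *Acaa1a*. It had between 1336 and 2131 reads per library, while *Acaa1b* had 1 to 4 and was not tested. The promoters of the pair are shown because their coding sequences are so alike while their counts are not. Each line gives 250 bases before to 50 after the start in the RefSeq table of GRCm38.p6, at chr9:119341044-119341343 on the plus strand and chr9:119157044-119157343 on the minus strand, with matches to CCAAT and GGGCGG on either strand in capitals.
Acaa1a: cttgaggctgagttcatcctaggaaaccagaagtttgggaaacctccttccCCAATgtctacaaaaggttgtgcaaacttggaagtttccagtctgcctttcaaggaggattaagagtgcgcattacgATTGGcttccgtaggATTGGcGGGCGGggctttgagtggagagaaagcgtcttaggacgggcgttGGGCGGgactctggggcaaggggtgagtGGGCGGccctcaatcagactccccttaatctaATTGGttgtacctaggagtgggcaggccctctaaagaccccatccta
Acaa1b: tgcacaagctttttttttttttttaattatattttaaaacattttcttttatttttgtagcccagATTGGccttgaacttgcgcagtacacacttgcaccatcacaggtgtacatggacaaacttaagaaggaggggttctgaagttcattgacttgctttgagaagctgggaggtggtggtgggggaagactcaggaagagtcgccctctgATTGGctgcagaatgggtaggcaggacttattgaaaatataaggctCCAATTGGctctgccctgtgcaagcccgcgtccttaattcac
Both windows held 4 matches to CCAAT, those in *Acaa1b* including a pair that overlap as CCAATTGG, and of all 32851 promoter windows of this length 37.4% held at least 1 and 1.06% held 4 or more. GGGCGG matched 3 times in *Acaa1a* and 0 times in *Acaa1b*, and 35.7% of all windows held it. The DR1 element, a direct repeat of AGGTCA with any 1 base between that is the consensus form of a PPAR response element, and the unit AGGTCA alone were matched 0 times on either strand in the 6 windows used, which belong to 5 of the 7 genes (*Abcd3*, *Crot*, *Pex11a*, *Acaa1a* and *Ehhadh*), against 0.0396% and 16.3% of all windows. These are matches of letters in a short window and no measure of binding.

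With vehicle, *Acaa1a* had 1540, 1652 and 1660 normalized counts, and with Tributyrin 1553, 1453 and 1712. Both the lowest and the highest mouse had been given Tributyrin. The means were 1618 ± 66.9 (SD, n = 3) and 1572 ± 130 (SD, n = 3), and the log2 fold change of -0.04 (standard error 0.079, 95% interval -0.22 to 0.14) was the lowest of the 7.

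*Crot* encodes the carnitine octanoyltransferase that makes exportable esters of the medium chain products. It lies at chr5:8966033-8997324 (minus strand). Its normalized counts were 902, 793 and 798 with vehicle and 878, 793 and 822 with Tributyrin. The means of 831 ± 61.7 (SD, n = 3) and 831 ± 43.1 (SD, n = 3) differed by 0.0232%, and the log2 fold change was 0.0016 (standard error 0.084, 95% interval -0.18 to 0.19).

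*Pex11a* encodes a membrane protein that elongates peroxisomes ahead of their division and is known as the inducible gene of its family. It lies at chr7:79735957-79743131 (minus strand). It was counted at 885, 789 and 749 normalized counts with vehicle and at 994, 796 and 894 with Tributyrin. Tributyrin replicate 1 stood above all others, while replicate 2 of the same group lay among the vehicle mice. The means were 808 ± 69.5 (SD, n = 3) and 894 ± 99.1 (SD, n = 3), and the log2 fold change was 0.15 (standard error 0.10, 95% interval -0.07 to 0.37, unadjusted p = 0.171 and adjusted p = 0.999 by edgeR). The estimate was 0.07 without Tributyrin replicate 1 and 0.22 without vehicle replicate 1. Without Tributyrin replicate 2 it was also 0.22, at an unadjusted p of 0.0429 and an adjusted p of 0.507 by edgeR.

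The mice differed in a way that crossed the groups. In 5 of the 7 genes, *Abcd2*, *Abcd3*, *Ehhadh*, *Crot* and *Pex11a*, replicate 1 was the highest mouse of both the vehicle and the Tributyrin group, a pattern seen in 13.3% of all genes tested. Scaled only by library size it was again 5 of 7, against 10.5% of all genes. Of the mitochondrial beta-oxidation genes 7 of 14 had the pattern, as had 1 of 14 other peroxisomal oxidation genes, 3 of 9 import and export genes, 4 of 15 peroxins and 1 of 9 genes of the membrane, antioxidant and ether lipid list. Whether same-numbered mice were paired cannot be told from the replicate numbers. Vehicle replicate 1 also had the largest mitochondrial share of its group, at 26.5% of counts against 23.6% and 24.1%, while Tributyrin replicate 1, at 27.7%, lay between 25.9% and 28.8%. The part of the mitochondrial share in the pattern was not tested.

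Levels were compared between genes per kb of exonic length, over all 6 mice. That length joins all annotated exons of a gene, so the levels depend on the annotation. *Hsd17b4* was the highest of the 7 at 875 ± 24.0 normalized counts per kb (SD, n = 6), above 93.3% of the genes tested. *Abcd3* followed at 597 ± 38.4, then *Acaa1a* at 361 ± 21.7, *Pex11a* at 267 ± 28.3, *Crot* at 152 ± 8.73, *Ehhadh* at 132 ± 15.4 and *Abcd2* at 34.2 ± 4.92 (SD, n = 6 for each). Neighbours in this order did not overlap over the 6 mice, except *Crot* and *Ehhadh*, whose ranges were 145 to 165 and 115 to 151. The order per kb was thus led by the D-bifunctional enzyme. Before the division by length, *Abcd3* had higher mean normalized counts than *Hsd17b4* in both groups. Within each of the 6 mice *Crot* was above *Ehhadh*, so that their ranges overlapped only between mice.

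**Figure D3:**
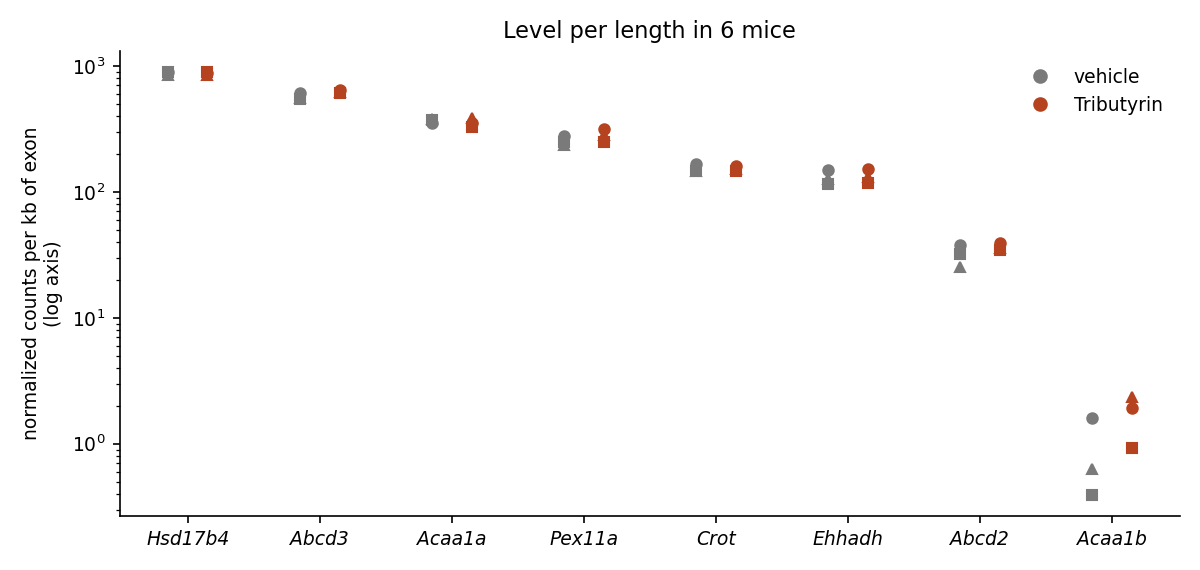
Normalized counts per kb of exon (y axis, log scale) in each mouse for the 7 genes and *Acaa1b*, ordered by mean, with vehicle in grey, Tributyrin in red and the marker shape giving the replicate. The groups lie beside each other at each gene from *Hsd17b4* down to *Abcd2*, and *Acaa1b*, with 1 to 4 reads per library, lies below them all.

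By the likeness rule, the genes whose course over the 6 libraries was most like that of *Abcd3* were *Kctd2*, *Pink1* and *Gcdh*. Their centred log2 normalized counts differed from those of *Abcd3* by 0.012, 0.013 and 0.015 on average, the smallest of 10262 genes compared.

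The wider peroxisomal gene set had log2 fold changes from -0.31 to 0.20, against -0.04 to 0.19 in the fixed list, which holds fewer genes. Both ends of the wider range were genes with few reads per library, *Acot4* (29 to 83) and *Hacl1* (16 to 37). The median absolute log2 fold change was 0.09 in the wider set, 0.04 in the fixed list and 0.09 over all genes. Of 49 other peroxisomal genes in 4 lists, 47 were tested, and 0 passed an FDR of 10% by edgeR (nor by DESeq2 or limma-voom). Of the 47, 1 had an unadjusted p under 0.05 by edgeR, against 4.25% of all genes. This count was 0 when vehicle replicate 2, vehicle replicate 3 or Tributyrin replicate 1 was left out. It was 11 when Tributyrin replicate 2 was left out, where over all genes it was 1359 of 14225. In the main fit the gene was *Ech1*, which encodes a dienoyl-CoA isomerase found in both peroxisomes and mitochondria. It had 45710.1, 41193.8 and 42532.5 normalized counts in vehicle mice and 50374.2, 46368.8 and 52045.9 in Tributyrin mice. Its log2 fold change was 0.20 (standard error 0.075, unadjusted p = 0.0216, adjusted p = 0.999 by edgeR), and its unadjusted p was above 0.05 with library size alone (0.0669) and without each of vehicle replicates 2 and 3 and Tributyrin replicates 1 and 3 (0.0553 to 0.0925). The median over the 47 genes was 0.04, with 31 estimates above 0 (against 49.6% of all genes), but 18 with library size alone. With that scaling the median was -0.03 over the 47 genes and -0.07 over all genes.

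Among the oxidation enzymes, *Decr2*, a peroxisomal dienoyl-CoA reductase, had the lowest estimate, -0.21 (standard error 0.10, unadjusted p = 0.0628), with its groups apart. *Eci2*, an enoyl-CoA isomerase, was at 0.14 (0.079). Of the import and export genes, *Nudt7*, a CoA diphosphatase, was at 0.18 (0.097), *Crat*, the carnitine acetyltransferase, at 0.10 (0.067) and *Acot4*, a thioesterase, at -0.31 (0.26). *Slc27a2*, a very long chain acyl-CoA synthetase, had 0 counts in all 6 libraries. Of the peroxins, which import proteins and build the membrane, 12 of 15 were above 0 with a median of 0.07, and those with the smallest p were *Pex14* at -0.18 (0.097), *Pex13* at 0.12 (0.075) and *Pex7* at 0.14 (0.088). In the last list, catalase (*Cat*) was at 0.13 (0.065), *Pxmp4*, a membrane protein, at 0.15 (0.075) and *Far1*, a reductase of ether lipid synthesis, at -0.15 (0.099). The groups of *Cat*, *Pxmp4*, *Pex13* and *Ech1* lay apart, higher with Tributyrin, 4 of the 47 genes against 4.26% of all genes, and those of *Decr2* lay apart and lower, 1 of 47 against 4.65%. All values in this paragraph are log2 fold changes with their standard error in brackets, and the adjusted p by edgeR was 0.999 for each.

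**Figure D4:**
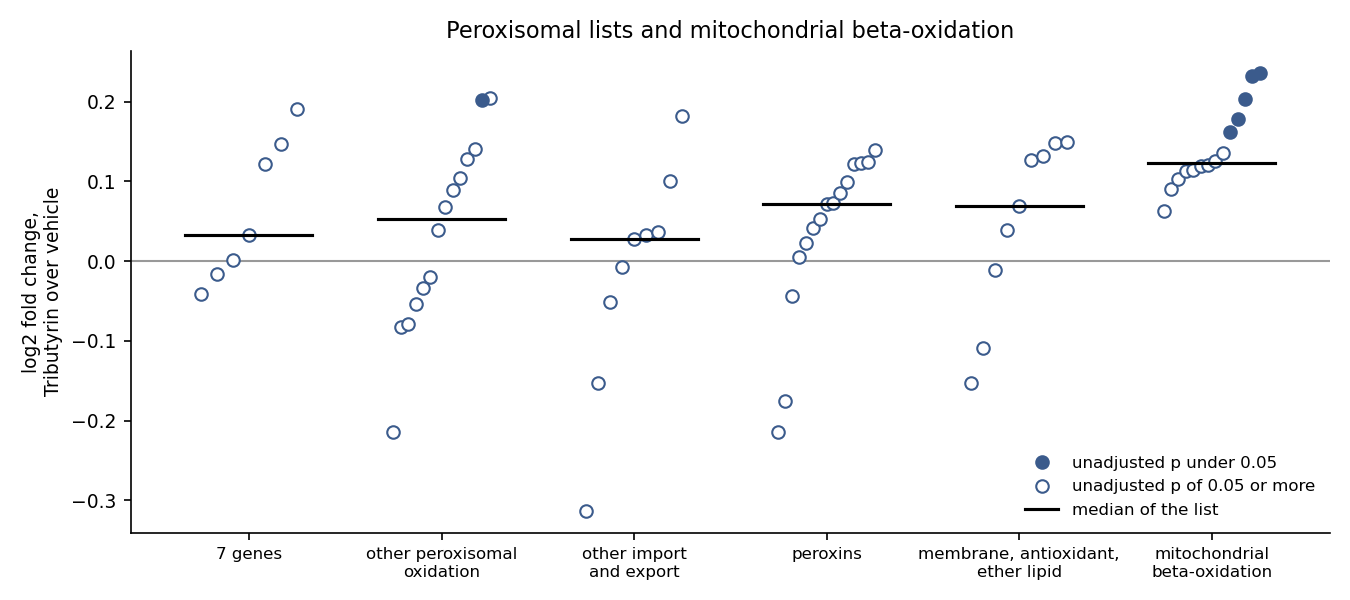
Log2 fold change, Tributyrin over vehicle (y axis), of each tested gene in 6 lists (x axis), with the median as a black line and filled points at an unadjusted p under 0.05. The 7 genes lie between -0.04 and 0.19 around a median of 0.03, and the 14 mitochondrial beta-oxidation genes all lie above 0 around a median of 0.12.

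Mitochondrial beta-oxidation, the pathway that takes over the shortened chains, gave other values in the same mice. Of its 14 genes, 14 were above 0 (13 with library size alone), against 49.6% of all genes, with a median log2 fold change of 0.12. In 7 the groups lay apart, higher with Tributyrin, against 4.26% of all genes. By edgeR 0 passed an FDR of 10%, and 5 had an unadjusted p under 0.05, all higher with Tributyrin, against 1.97% of all genes. The count of 5 fell to 0 with library size alone or when vehicle replicate 3 was left out. It was 1 when vehicle replicate 2 or Tributyrin replicate 1 was left out. When Tributyrin replicate 2 was left out it was 9, where over all genes it was 1359 of 14225. The ventricular, fibroblast and smooth muscle markers given above moved in the same mice, and their part in this was not tested. The smallest p belonged to *Etfb*, an electron carrier subunit, at 0.23 (standard error 0.081), *Decr1* at 0.18 (0.065) and *Acaa2*, the mitochondrial thiolase, at 0.24 (0.089). The genes were then set against their counterparts, a choice made after these values were seen. In each library the log2 ratio of a peroxisomal gene to the mitochondrial gene of the same reaction was taken for 5 pairs, which does not depend on the scaling.

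Since the mitochondrial genes had been seen above 0 and *Decr2* below it, lower ratios restate those values, and the ratios are given as a description. Exact permutation tests (two-sided) of the 5 pairs had adjusted p from 0.25 to 0.6 after Benjamini and Hochberg. They cannot decide here, because the pairs were chosen after the values were seen. *Hadha*, which encodes the mitochondrial trifunctional enzyme, stands in 2 of the 5 pairs. The log2 ratio of *Hsd17b4* to *Hadha* was -4.04, -3.93 and -4.06 in vehicle mice and -4.12, -4.15 and -4.16 in Tributyrin mice. Every Tributyrin mouse lay below every vehicle mouse, with a difference in means of -0.14 (standard error 0.042). *Decr2* to *Decr1* also had every Tributyrin mouse below every vehicle mouse, with a difference of -0.39 (standard error 0.086). *Acaa1a* to *Acaa2* differed by -0.28 (standard error 0.16), with vehicle replicate 1 at -4.43 among the Tributyrin mice. *Eci2* to *Eci1* differed by -0.06 (standard error 0.033) and *Ehhadh* to *Hadha* by -0.09 (0.14), with overlapping groups in both. With single mice left out the difference of *Ehhadh* to *Hadha* ran from -0.18 to 0.02, while those of the other 4 pairs stayed below 0.

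**Figure D5:**
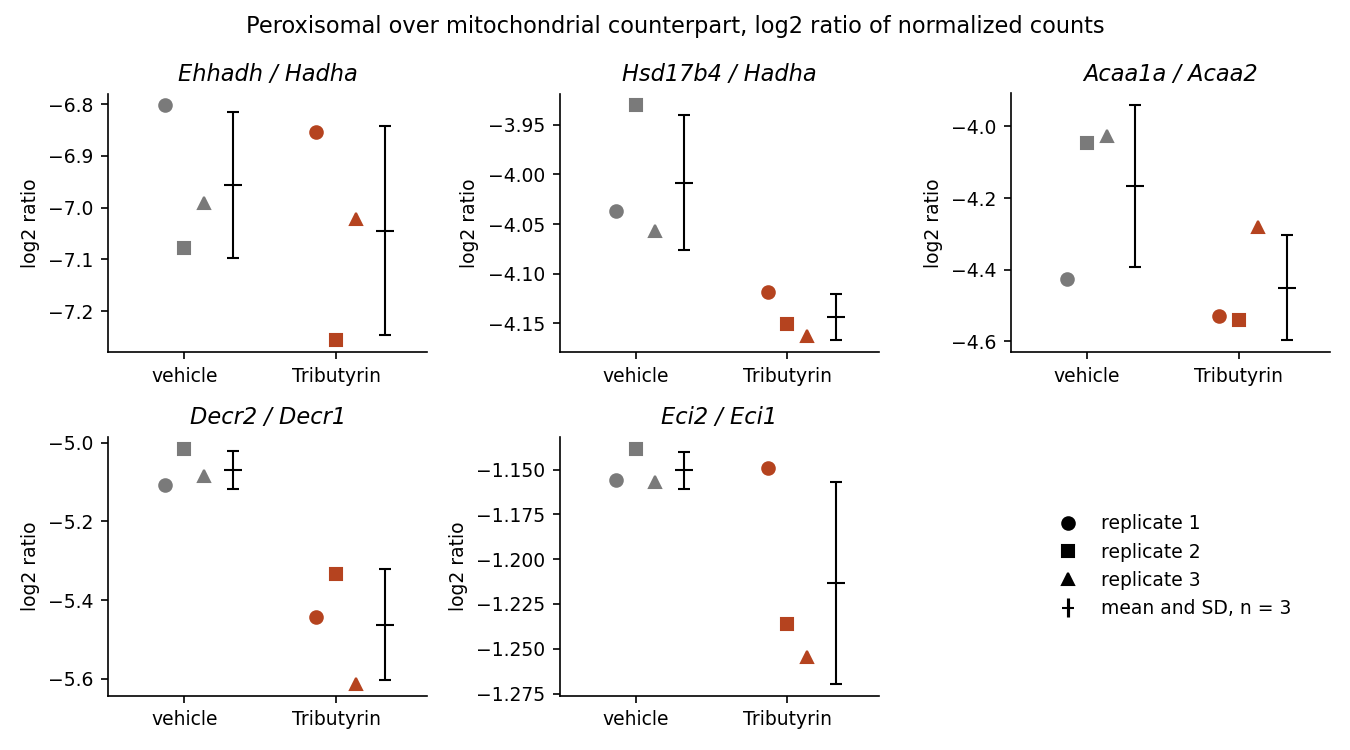
Log2 ratio of normalized counts of a peroxisomal gene to its mitochondrial counterpart (y axis, a separate range in each panel) in each mouse, with the mean and SD of 3 mice as bars. The groups lie apart for *Hsd17b4* to *Hadha* and *Decr2* to *Decr1* and overlap in the other 3 panels.

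Per kb, the mitochondrial gene was above its peroxisomal counterpart in every pair. The smallest gap was that of *Eci1* over *Eci2*, 5.91-fold, followed by *Hadha* over *Hsd17b4*, 6.58-fold. It was 26.3-fold for *Decr1* over *Decr2*, 43.7-fold for *Hadha* over *Ehhadh* and 57.7-fold for *Acaa2* over *Acaa1a*. These are means over 6 mice of both groups, and they depend on the annotated exonic lengths. The lengths were 5540 bases for *Eci2* and 2127 for *Eci1*, and 3404 for *Hsd17b4* and 8730 for *Hadha*. Without division by length, the log2 ratio of *Eci2* to *Eci1* averaged -1.15 in vehicle mice and -1.21 in Tributyrin mice.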

How the data were processed

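Stranded mRNA sequencing of heart ventricle gave 6 libraries, 3 of WD-fed mice treated with Tributyrin and 3 with vehicle, grouped by their labels. The authors deposited whole-number counts of reads per Ensembl gene without normalization. Per the submitters' processing notes and the study's methods, reads of 50 bases were trimmed with cutadapt 1.13, filtered for rRNA, aligned to mm10 with STAR and counted with HTSeq 0.6.1p1, and the notes name DESeq2 1.14.1. For the annotation release and the strand setting, the value is not given in the sources used here. Libraries held 20369746 to 32734485 counts, and 0 counts were on lines naming no gene.

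Names, positions and exonic lengths came from GENCODE M21 (54165 of 54232 identifiers matched). Groups were compared with edgeR 4.0.16 (quasi-likelihood test, TMM scaling, filterByExpr with minimum count 10 and total 15, Benjamini-Hochberg adjustment over 14133 genes). Alternatives used DESeq2 1.42.0 and limma 3.58.1 in R 4.3.3, other scalings and filters, a replicate block and each library left out. Single ratios (pseudocount 0.5) had two-sided exact permutation tests with scipy 1.17.1. The main edgeR fit and the DESeq2, limma-voom and replicate block fits were tested on simulated data. Members and lists were chosen with earlier results of these data known. Named genes were the 7 members, *Acaa1b*, from each other list those past an FDR of 10% or else the 3 with the smallest p, and the 3 genes nearest in course (mean normalized count of at least 100) to the member with the smallest p. Other genes were named after their values were seen, and the results of some genes, counted in their lists, are not reported here. The labels do not say that mice came from separate litters or cages, so p-values measure the spread between these libraries. No 2 libraries agreed within sampling noise.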

Additional observations from a re-analysis of the deposited data

How the results depend on the processing

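Under the 18 alternatives tried, 2 of them chosen after the data were seen (bias-adjusted deviances and leaving out vehicle replicates 1 and 2), 0 of the 7 genes passed an FDR of 10%. The number above 0 was 5 in the main fit and 3 with library size alone, where the median over all genes was -0.07. This number was 4 with RLE scaling or a mean CPM of at least 5, and 6 without vehicle replicates 1 and 2. With single mice left out it ran from 3 to 6. Estimates of *Abcd2*, *Abcd3* and *Pex11a* stayed above 0 in all 18. *Crot* fell below 0 with RLE scaling (-0.0003), library size alone (-0.0695) and a mean CPM of at least 5 (-0.0026), *Ehhadh* with library size alone (-0.0377), and *Hsd17b4* was at 0.0288 without vehicle replicates 1 and 2. With single mice left out, the log2 fold change ran from -0.0376 to 0.014 for *Hsd17b4*, -0.10 to 0.0117 for *Acaa1a*, -0.0585 to 0.15 for *Ehhadh* and -0.0349 to 0.0698 for *Crot*, and the median of the 7 from -0.0182 to 0.15. The differences in ratio ran from -0.0516 to 0.15 (*Ehhadh* to *Hsd17b4*) and -0.0401 to 0.17 (*Abcd2* to *Abcd3*). The members with an unadjusted p under 0.05 numbered 0 to 1 with single mice left out, and 1 without vehicle replicates 1 and 2. The cause of these moves was not tested.

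Over all genes, an FDR of 10% was passed by 167 genes without the filter on low counts (140 at 5%), 11 by DESeq2 without a prior (5 at 5%) and 9 with one (5 at 5%, *Aqp4*, *Gnao1*, *Sorl1*, *Cenpf* and *Cacng6* in both), and by 0 to 3 with single mice left out (0 to 3 at 5%). Leaving out vehicle replicate 1 called *Cacng6* among others. Leaving out vehicle replicate 3 called *Sln* and *Mybphl*. Leaving out Tributyrin replicate 1 called *Gdpd3* and *Gm10167*, replicate 2 *Rps3a1* and *Rps3a3*, and replicate 3 *Dkk3*, *Bdh1* and *F830016B08Rik*. Genes with an unadjusted p under 0.05 numbered 600, but 1178 without the filter, 367 at a mean CPM of at least 5, 396 without vehicle replicates 1 and 2, and from 389 to 1359 with single mice left out, the lowest without vehicle replicate 3 and the highest without Tributyrin replicate 2. What caused this was not tested.

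Same-numbered mice deviated together with correlations of 0.21, 0.04 and 0.01, and 4 of 6 libraries correlated best with their own number. Whether the mice were paired cannot be told from these values. The replicate block called 2 genes at 10%, *Ankrd1* and *Trim72*, and left 0 of the 7 past it. The median of the 7 was 0.03, as in the main fit.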
